A study of Mus musculus with 11 samples.

Results

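Pi16, Dpp4, Cd34, Sema3c, Efemp1, Mfap5, Cd55, Gap43 and Cadm3 are genes by which Pi16- and Dpp4-expressing fibroblast progenitors are recognised. These 9 genes, of 16576 listed in any of the 3 deposited tables, were chosen by name with their measured values in view, so their own levels and differences are given below as a description and support no test. All 9 were listed in the table of the Sca1 label comparison, and 8 in the tables of the age and knockout comparisons, where Cadm3 has no row.

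The libraries were polyA RNA of mouse bone marrow mesenchymal stromal cells sorted by flow cytometry, 11 samples in 4 groups, sequenced to compare ages, Sca1 sorts and loss of Igf1r, the gene of the receptor for insulin-like growth factor 1. Wild-type cells came from adults (PDGFRa+CD51+, 3 samples) and from perinatal mice, the latter as PDGFRa+Sca1+ cells titled Cre-negative (3 samples) and PDGFRa+Sca1- cells (2 samples, numbered 2 and 3), while the Igf1r knockout cells were PDGFRa+Sca1+ and titled Cre-positive (3 samples). For the wild-type perinatal cells the sort label reads postnatal, and for the knockouts only the series' design text gives an age, perinatal. No source used here names the Cre driver, the strain, the age in days or any pooling of animals, and Cre and the deletion cannot be told apart.

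Some libraries went against their labels or stood apart. Ly6a, which encodes Sca1, had 10159 and 9112 counts in the libraries labelled Sca1-negative and 239 and 145 in those labelled Sca1-positive in the same table, so groups are named below by their labels only. Wild-type Sca1-positive replicates 2 and 3 are the same libraries in all 3 tables, so the 3 comparisons share them. What is called replicate 1 differs between the age and knockout tables, which hold separate libraries under 1 sample label, and Ly6a had 8624 counts in that of the knockout table. Replicates 2 and 3 also held summed levels of 6 cartilage markers of 5087 to 6216 CPM (counts scaled to the same total in each library) against 289 to 385 in the libraries labelled Sca1-negative. The adult libraries held 19634 to 22448 CPM of 7 macrophage markers against 22.8 to 26.7 in the perinatal libraries. Igf1r was 29.5 to 31.7 CPM in the controls and 8.20, 4.22 and 3.24 CPM in the knockouts. Total counts per library ran from 13412316 to 23782217. No label says that samples of a group were separate animals, so a p-value here reflects the spread among the samples at hand, which may be technical.

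Fibroblasts with Pi16 and Dpp4 line vessels and fascia in many organs and are regarded there as a reserve from which more specialised fibroblasts and fat cell precursors arise. They are usually isolated by PDGFRa, Sca1 and CD34 on their surface, and they make a loose matrix rich in microfibrils and hyaluronan. The stroma inside the marrow is better known for Lepr and Cxcl12, which stood among the committed fibroblast genes of a comparison list.

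The members lie apart in the genome (mm10, GENCODE M21 annotation). Pi16, a secreted or membrane-bound protein of the CAP family, is at chr17:29317680-29330593 on the plus strand. Dpp4, the surface peptidase CD26, is at chr2:62330073-62412231 on the minus strand. Cd34, Cd55 and Cadm3 share chromosome 1, at chr1:194938819-194961279, chr1:130439027-130462744 and chr1:173333258-173367695. Sema3c is at chr5:17574281-17730268, Efemp1 at chr11:28853204-28926743, Mfap5 at chr6:122505845-122529290 and Gap43 at chr16:42248442-42340651. All are annotated as protein-coding. Antisense transcripts overlap Pi16, Dpp4, Cd34 and Cd55, the microRNA gene Mir6540 lies within Gap43, and Cadm3 overlaps Ackr1 on its own strand and Aim2 on the other. The strand setting of the read counting is not given in the sources used here, so the levels of these genes may include reads of the overlapping ones.

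RefSeq promoter sequences (GRCm38.p6, the assembly of mm10) matched 7 of the 9 members, all except Mfap5 and Gap43. The 250 bases before the start are shown for Cd34 and Dpp4, whose profiles parted across the knockout table, for Efemp1, whose adult level was not called lower, and for Cadm3, whose difference between the Sca1 labels had the greatest size. They run 5′ to 3′ on the strand of the gene, and capitals mark each match, on either strand, to the TATA box TATAAA, the CCAAT box, the GC box GGGCGG, the E-box CANNTG, the AP-1 letters TGANTCA, the FoxO letters GTAAACA or the TEAD letters GGAATG, of which Cd34 has none. The sequence for Pi16 is not shown, since its window lies within the first exon of a longer annotated transcript.
Cd34 at chr1:194938571-194938820, plus strand: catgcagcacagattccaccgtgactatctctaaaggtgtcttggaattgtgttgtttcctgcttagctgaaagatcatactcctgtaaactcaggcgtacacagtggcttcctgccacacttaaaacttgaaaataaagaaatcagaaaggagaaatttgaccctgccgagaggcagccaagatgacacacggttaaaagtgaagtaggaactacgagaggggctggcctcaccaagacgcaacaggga
Dpp4 at chr2:62412232-62412481, minus strand: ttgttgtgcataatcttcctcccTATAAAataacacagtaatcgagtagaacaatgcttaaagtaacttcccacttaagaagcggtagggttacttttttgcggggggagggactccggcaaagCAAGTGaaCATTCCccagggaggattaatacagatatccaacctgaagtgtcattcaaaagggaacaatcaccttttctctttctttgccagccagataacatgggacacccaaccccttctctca
Efemp1 at chr11:28852955-28853204, plus strand: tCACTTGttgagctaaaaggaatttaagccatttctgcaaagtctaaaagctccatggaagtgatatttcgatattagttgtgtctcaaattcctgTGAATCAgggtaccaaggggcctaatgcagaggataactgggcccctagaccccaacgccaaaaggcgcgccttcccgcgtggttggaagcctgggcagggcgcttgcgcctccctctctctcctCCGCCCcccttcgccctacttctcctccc
Cadm3 at chr1:173367696-173367945, minus strand: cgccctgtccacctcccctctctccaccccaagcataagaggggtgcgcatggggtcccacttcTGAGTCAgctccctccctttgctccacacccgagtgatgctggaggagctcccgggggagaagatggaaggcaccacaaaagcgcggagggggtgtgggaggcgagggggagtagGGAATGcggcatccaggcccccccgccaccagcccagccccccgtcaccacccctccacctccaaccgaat

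The 7 promoters shared no searched motif. The AP-1 letters TGANTCA were in the promoters of Efemp1 and Cadm3, 154 and 186 bases before the start, and in 6.75% of 32851 mouse promoters of the same length. The TEAD letters GGAATG were in those of Dpp4 and Cadm3, 118 and 71 bases before the start, and in 12.6% of all. The CCAAT letters were in that of Pi16 (33.8% of all), TATAAA in that of Dpp4 (12.4%), and the FoxO letters GTAAACA in none of the 7 (3.17%). The GC box GGGCGG was in 3 of the 7 (Cd55, Efemp1 and Sema3c) against 32.7% of all, and the E-box CANNTG in 3 (Dpp4, Efemp1 and Sema3c) against 66.2%. In Dpp4 the E-box ends 2 bases before the TEAD letters begin. GC content ran from 43.6% in Dpp4 to 78.4% in Sema3c. The window of Sema3c, chr5:17574566-17574815, lies within the gene as annotated in GENCODE, as does that of Pi16, so their matches may not be upstream of every start. These matches are letters in a window and show no binding.

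Per unit of transcript length, Mfap5 was the most abundant member in the perinatal libraries and Cadm3 the least. In the libraries labelled Sca1-negative, Mfap5, a glycoprotein of the microfibrils that carry elastin, was at 6172 and 4747 TPM (reads scaled by transcript length and library), which ranked 10 and 14 among the genes of those libraries. Cd34, a sialomucin of progenitor and endothelial surfaces, followed at 343 and 585 TPM. Gap43, a growth cone protein also found in Schwann cells, was at 286 and 241 TPM and Pi16 at 100 and 256 TPM, and the libraries overlapped. Sema3c, Cd55 and Efemp1 came next, at 82.6 and 104, 80.2 and 99.8, and 51.3 and 68.4 TPM, and Sema3c overlapped with both Pi16 and Cd55. Dpp4 was at 14.8 and 16.0 TPM and Cadm3 at 11.5 and 13.3 TPM. In the libraries labelled Sca1-positive the order was the same at both ends, with Mfap5 at 1138 and 1499 TPM and Cadm3 at 0.743 and 0.772 TPM.

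**Figure D1:**
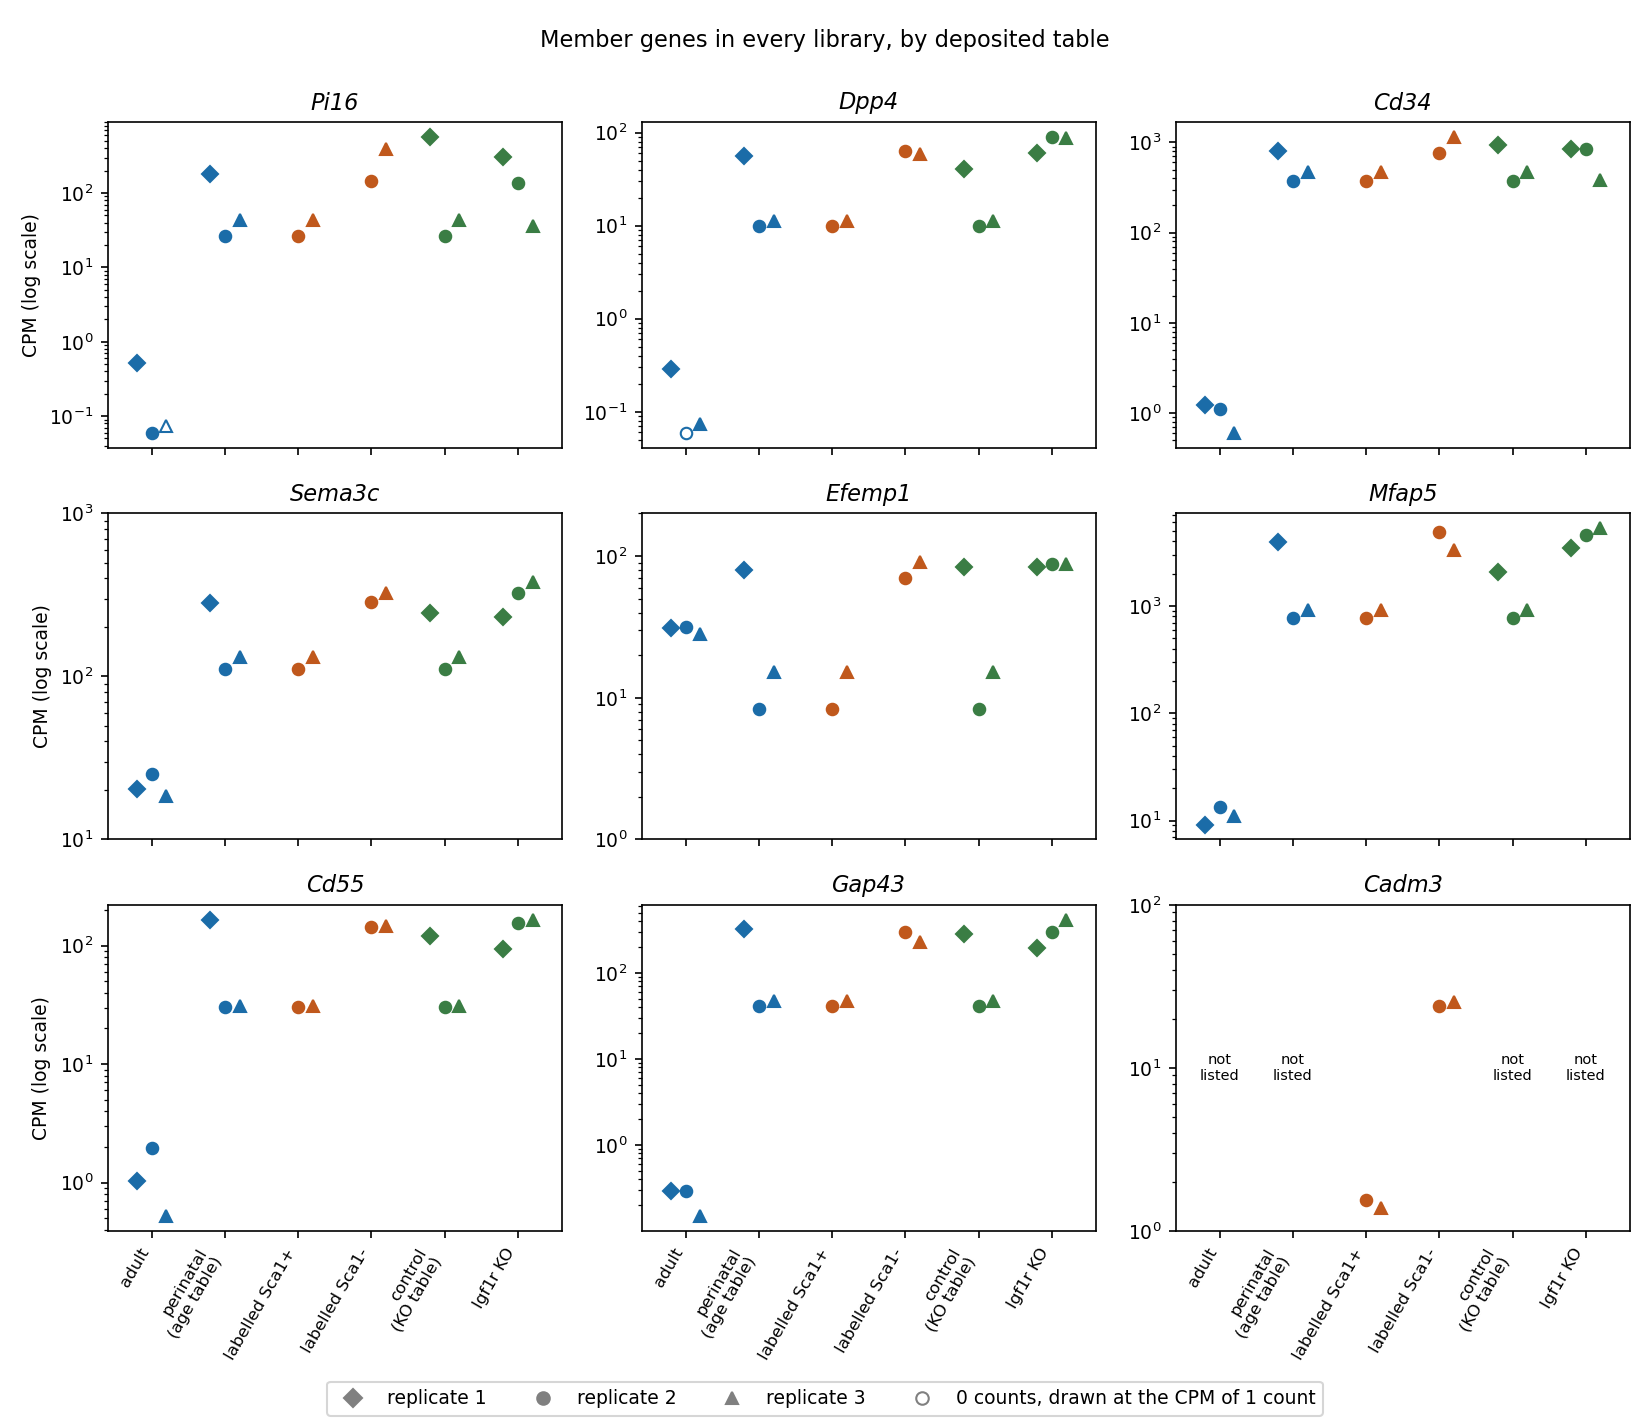
CPM of each member in every library, by group and table (log axis, each panel with its own scale, a count of 0 drawn at the CPM of 1 count). Most members sit lowest in the adult libraries, and the library of each control or perinatal group numbered 1 sits above replicates 2 and 3.

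The first comparison set the 2 libraries labelled Sca1-negative against replicates 2 and 3 labelled Sca1-positive. All 9 members were higher in both libraries labelled Sca1-negative than in either labelled Sca1-positive, the libraries whose Ly6a counts run against those labels. Fold changes below are edgeR log2 values with their standard error (SE). In bulk RNA, fewer cells of a type and less RNA per cell cannot be told apart.

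Of the genes that name the state, Pi16 was at 147 and 398 CPM with the label Sca1-negative and at 26.6 and 43.1 CPM with the label Sca1-positive. The groups did not overlap, but the pair labelled Sca1-negative differed by 2.70-fold, and the log2 fold change was 2.99 ± 0.50 (SE), or 2.15 without the library labelled Sca1-negative 3. Dpp4, which trims dipeptides from peptide hormones and chemokines, was at 63.9 and 59.0 CPM against 9.99 and 11.3 CPM, a log2 fold change of 2.56 ± 0.20 (SE). Its replicates lay close together in both groups. Cd34 was at 765 and 1155 CPM against 370 and 469 CPM, with a log2 fold change of 1.22 ± 0.26 (SE), the smallest of the 9.

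Among the matrix and secreted members, Mfap5 was at 4843 and 3312 CPM against 776 and 910 CPM, a log2 fold change of 2.31 ± 0.27 (SE). Efemp1, or fibulin-3, an extracellular matrix glycoprotein, was at 70.0 and 91.4 CPM against 8.31 and 15.3 CPM, a log2 fold change of 2.80 ± 0.33 (SE). Sema3c, a secreted guidance protein that signals through neuropilins and plexins, was at 284 and 326 CPM against 111 and 132 CPM, a log2 fold change of 1.36 ± 0.20 (SE). No library of either group crossed into the other for these 3 genes.

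Among the surface and cytoplasmic members, Cd55, which protects cells from complement, was at 143 and 147 CPM against 30.1 and 30.9 CPM, a log2 fold change of 2.28 ± 0.18 (SE). Gap43 was at 295 and 226 CPM against 41.1 and 47.0 CPM, a log2 fold change of 2.60 ± 0.23 (SE). Cadm3, an adhesion protein of the nectin-like family best known from neurons, was at 23.9 and 25.4 CPM against 1.56 and 1.38 CPM, a log2 fold change of 4.09 ± 0.25 (SE). Ackr1, which overlaps Cadm3 on the same strand, was at 15.4 and 15.0 CPM against 8.31 and 1.59 CPM, and the share of its reads in the Cadm3 level was not tested.

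In edgeR's quasi-likelihood test, 8 of the 9 members were called higher at an adjusted p under 0.05 and Cd34 was not, where 1.63% of all 13529 genes tested were called higher. All 9 lay higher with no overlap between the groups, as did 22.2% of all genes. The choice of members used these values, so the counts are given as a description. Leaving out the library labelled Sca1-negative 2 ended the call of Efemp1, leaving out Sca1-positive 2 ended that of Sema3c, and Cd34 was called by DESeq2. Cartilage and bone markers moved the other way from the members, at 289 and 385 against 5087 and 6216 CPM summed over 6 cartilage genes and at 141 and 90.7 against 6100 and 5680 CPM over 6 bone genes, none of them at 0, and their part in the result was not tested. Summed levels of 8 endothelial markers, 115 and 114 against 110 and 77.3 CPM, differed by less than any member, but single genes of the list did not move alike. Tek, an endothelial receptor, was at 55.1 and 69.4 against 10.5 and 12.0 CPM (2.50 ± 0.21 SE, edgeR adjusted p = 0.00377), while Egfl7 was at 12.8 and 11.4 against 25.8 and 19.6 CPM and Cdh5 at 7.21 and 3.54 against 10.1 and 9.34 CPM, and their part in the result was not tested. The summed level of 7 Schwann cell markers was lower where Gap43 was higher, at 26.6 and 28.1 against 113 and 44.9 CPM, with Cdh19 at 0 in the library labelled Sca1-negative 3. Of the 7, Erbb3 and S100b overlapped between the groups.

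**Figure D2:**
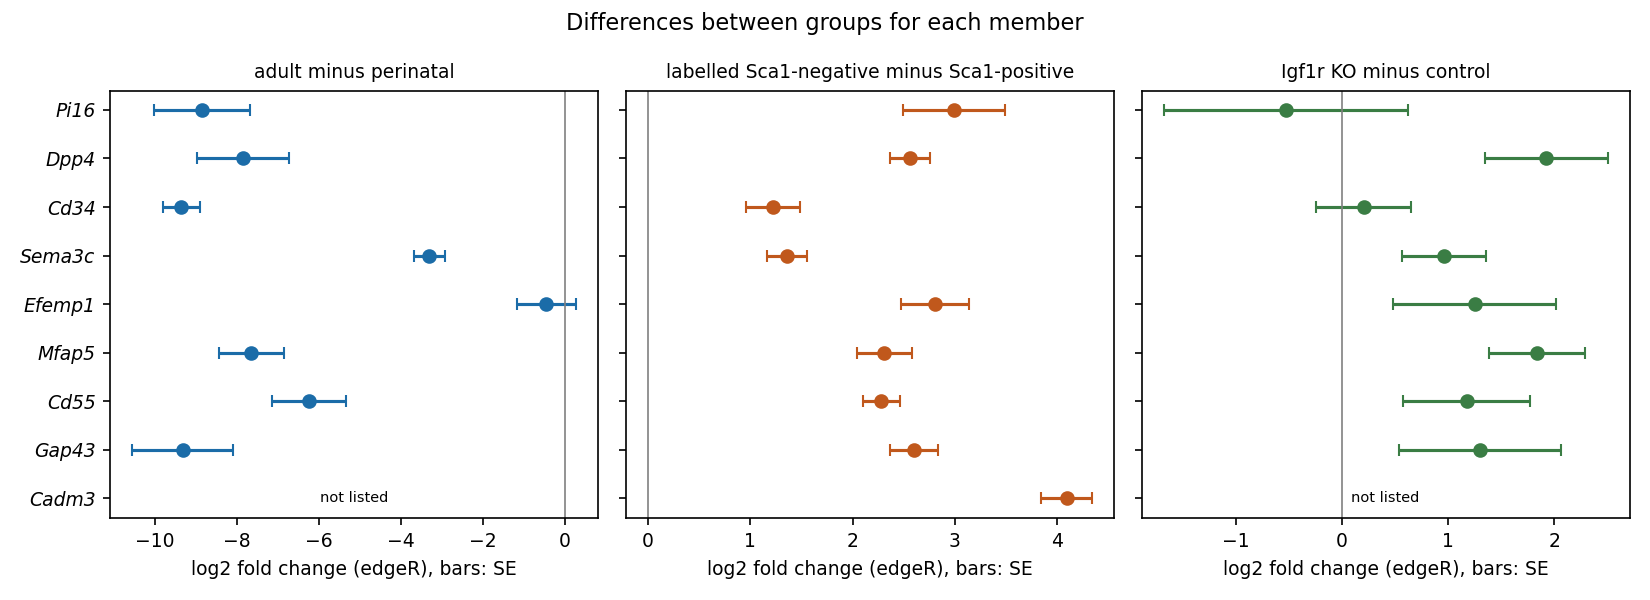
edgeR log2 fold change of each member with its SE in the 3 comparisons (adult over perinatal, labelled Sca1-negative over labelled Sca1-positive, knockout over control). The 9 values for the Sca1 labels run from 1.22 to 4.09, and the 8 for the knockout from -0.53 to 1.93.

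A list of 27 further genes known from such progenitors, called companion genes here, mostly moved the same way as the members between the Sca1 labels. This and the other lists were chosen with earlier results of these data known, and this one holds the sort gene Ly6a. Their counts are therefore a description and no independent support. Of the 27, 14 rose and 1 fell in edgeR's test, where 1.63% of all genes rose and 2.79% fell, with a median log2 fold change of 1.42 against 2.56 for the members and 0.01 for all genes. Besides the sort gene Ly6a, Ly6c1, a related surface protein, was at 271 and 299 CPM in the libraries labelled Sca1-negative against 13.0 and 9.89 CPM (log2 fold change 4.67 ± 0.23 SE, edgeR adjusted p = 0.00147). Anxa3, an annexin, rose from 24.1 and 25.2 CPM to 127 and 105 CPM (2.27 ± 0.20 SE, edgeR adjusted p = 0.00423), and Scara5, a ferritin receptor, from 22.98 and 24.4 CPM to 73.1 and 112 CPM (1.996 ± 0.24 SE, edgeR adjusted p = 0.00888). The gene that fell was Smpd3, a sphingomyelinase active in cartilage and bone, from 27.0 and 23.8 CPM to 4.52 and 5.06 CPM (-2.37 ± 0.22 SE, edgeR adjusted p = 0.00466). The count of called companions ran from 8 to 24 when each library was left out in turn, with 8 without the library labelled Sca1-positive 2 and 24 without that labelled Sca1-negative 3, where 1.03% and 16.3% of all genes were called higher, and was 24 in DESeq2, which called 3.16% of all genes higher.

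Of 15 genes of more committed fibroblast states, edgeR called 0 in either direction between the Sca1 labels, with 1 higher and 6 lower at an unadjusted p under 0.05 (8.65% and 10.3% of all genes) and 2 lower by DESeq2 (4.42% of all genes), and the median was -0.08. Their count was 2 without the library labelled Sca1-positive 2, 6 without Sca1-negative 2 and 7 without Sca1-negative 3, mostly lower, where 2.52%, 8.24% and 18.4% of all genes were called lower. Lepr was at 35.0 and 26.4 CPM against 51.1 and 48.4 CPM, and Cxcl12 at 161 and 293 CPM against 472 and 582 CPM. Among 48 tested relatives and partners of the members, 1 rose and 6 fell, beside 1.63% and 2.79% of all genes. That count of 7 was 19 without the library labelled Sca1-negative 2, where 7.99% of all genes were called higher and 8.24% lower. Without Sca1-negative 3 it was 28, beside 16.3% higher and 18.4% lower. C3, the complement component whose activation Cd55 limits, rose from 1.79 and 2.08 CPM to 37.3 and 18.2 CPM (3.89 ± 0.43 SE, edgeR adjusted p = 0.00744). Cadm1, a family relative of Cadm3, fell from 53.5 and 51.6 CPM to 8.39 and 5.49 CPM (-2.88 ± 0.26 SE, edgeR adjusted p = 0.00439). Crispld1 and Crispld2, CAP family relatives of Pi16, fell by 2.40 ± 0.22 and 1.78 ± 0.22 on the log2 scale (SE; edgeR adjusted p = 0.00471 and 0.00969).

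Partners of Sema3c and Mfap5 in the same table had their own patterns. Nrp1 and Nrp2, neuropilin receptors for semaphorins of this class, were at 313 and 303 against 228 and 235 CPM and at 20.001 and 29.9 against 71.9 and 72.0 CPM, so the 2 receptors differed in opposite directions. Fbn1, the fibrillin of the microfibrils to which Mfap5 binds and a companion gene, was at 2465 and 3675 CPM against 813 and 1077 CPM (1.73 ± 0.27 SE, edgeR adjusted p = 0.0221). Of the genes next to the members in the genome, Mtch1 and BC004004, on either side of Pi16, had log2 fold changes between the Sca1 labels of 0.25 and 0.11, and Zbtb20, next to Gap43, had 0.02. Lsamp, on the other side of Gap43, was at 3.21 to 10.8 CPM over the 4 libraries and lower with the label Sca1-negative (-1.41, edgeR adjusted p = 0.0404). Rimklb, next to Mfap5, and Ccdc85a, next to Efemp1, had -3.48 and -2.57 at no more than 1.04 and 2.71 CPM. Plxna2, next to Cd34, had -0.996, and these 3 were not called (edgeR adjusted p = 0.0695, 0.0894 and 0.0885). Cd36, next to Sema3c, and Pnpt1, on the other side of Efemp1, had -0.21 and -0.12. Slc4a10 and Gcg, on either side of Dpp4, were under 1 CPM or had no row in this table.

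**Figure D3:**
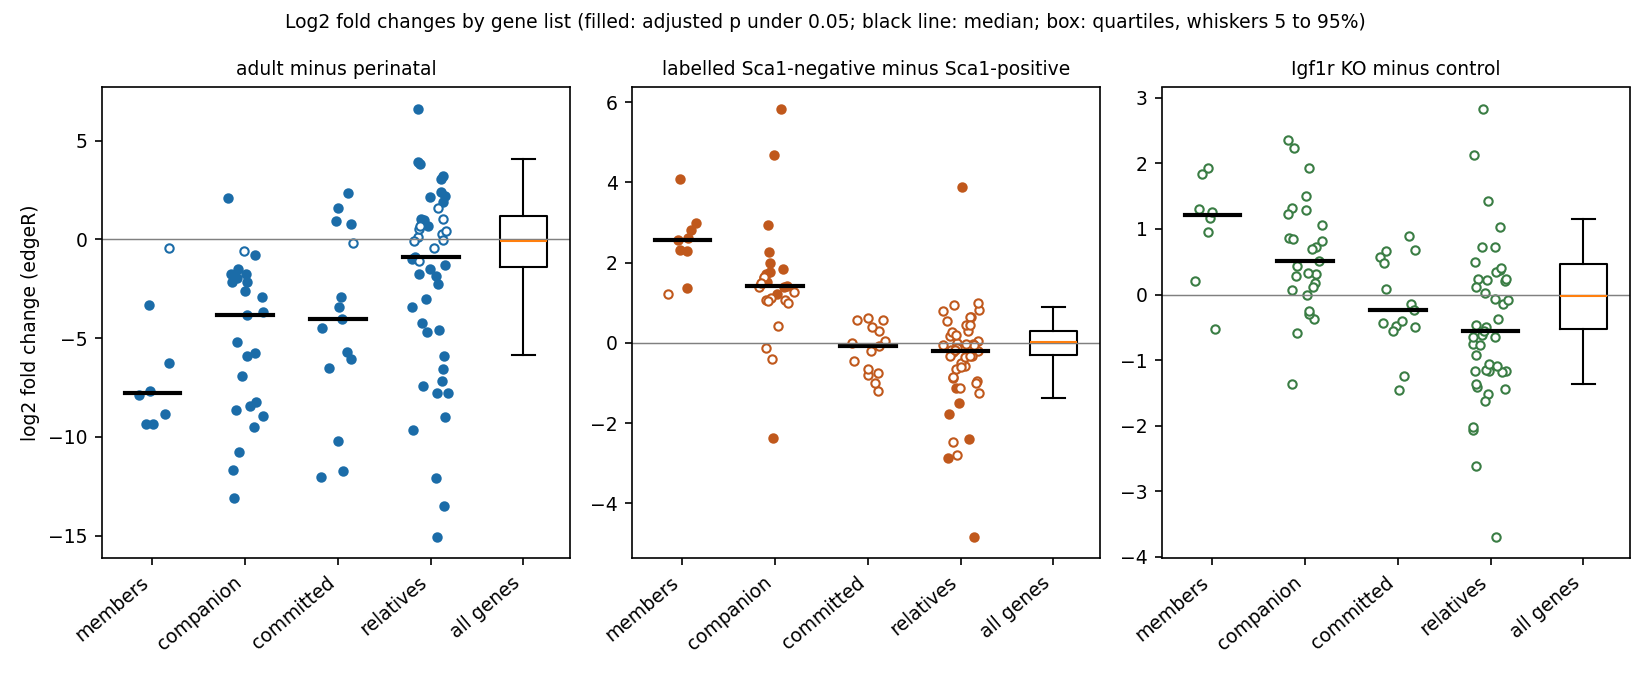
Distribution of edgeR log2 fold changes in each comparison for the members, companion genes, committed fibroblast genes, relatives and partners, and all genes tested (boxes: quartiles; whiskers: the central 90%). Between the Sca1 labels the medians are 2.56, 1.42, -0.08, -0.19 and 0.01.

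The second comparison set 3 adult libraries against 3 perinatal ones labelled Sca1-positive, in their own table. Age and sort gate (PDGFRa+CD51+ in adults, PDGFRa+Sca1+ in perinatal mice) differ together here, so they cannot be told apart. In the adult libraries Pi16, Dpp4 and Gap43 were close to the floor of detection, Cd34 and Cd55 were at 7 to 33 counts, and Mfap5, Sema3c and Efemp1 were well above it. A count of 3 per library was taken as the floor, 0.174 to 0.224 CPM in the adult libraries, and covers counting error only.

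Pi16 had 9, 1 and 0 counts in the adult libraries, or 0.521, 0.0589 and 0 CPM, against 180, 26.6 and 43.1 CPM in perinatal replicates 1, 2 and 3. Pooled over libraries, its perinatal level was 384 times the adult one (exact 95% interval 209 to 802, counting error only). Dpp4 had 5, 0 and 1 counts, or 0.289, 0 and 0.0746 CPM, against 56.5, 9.99 and 11.3 CPM, a pooled ratio of 200.1 (91.7 to 546). Single libraries moved these sizes: the log2 fold change of Pi16, -8.85 ± 1.16 (SE), was -11.21 without adult 1 and -7.58 without perinatal 1, and that of Dpp4, -7.86 ± 1.13 (SE), was -9.51 without adult 1, -7.22 without adult 2 and -6.57 without perinatal 1. Adult libraries 2 and 3 were at or under the floor for both genes.

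Cd34 was at 1.22, 1.12 and 0.596 CPM in the adult libraries and at 803, 370 and 469 CPM in the perinatal ones, a log2 fold change of -9.36 ± 0.45 (SE). It was the member with the smallest SE relative to its size. Gap43 was at 0.289, 0.295 and 0.149 CPM against 326, 41.1 and 47.0 CPM, -9.32 ± 1.23 (SE), and Cd55 at 1.04, 1.94 and 0.522 CPM against 165, 30.1 and 30.8 CPM, -6.24 ± 0.91 (SE). Mfap5 was at 9.15, 13.5 and 10.96 CPM against 3913, 776 and 910 CPM, -7.65 ± 0.79 (SE). Perinatal replicate 1 exceeded the mean of replicates 2 and 3 by 1.91-fold for Cd34 and 7.41-fold for Gap43, the ends of the range over the 8 members. Without it the log2 fold changes of Gap43, Mfap5 and Cd55 were -7.66, -6.49 and -4.91. Cartilage markers summed to 369, 5085 and 6214 CPM in perinatal replicates 1, 2 and 3, and bone markers to 325, 6098 and 5680 CPM. The part of this split in the fold changes was not tested.

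Sema3c, at 20.5, 25.3 and 18.6 CPM in the adult libraries and 284, 111 and 132 CPM in the perinatal ones, had a log2 fold change of -3.30 ± 0.37 (SE). Efemp1 was at 31.1, 31.7 and 28.4 CPM in the adult libraries and 79.7, 8.31 and 15.3 CPM in the perinatal ones. The adult values lay between perinatal replicate 1 and the other two, and the log2 fold change of -0.45 ± 0.73 (SE) turned to 1.12, past the threshold, without perinatal replicate 1. Against perinatal replicate 1 alone it was -1.64.

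Of the 8 members, 7 were called lower in the adult libraries, and the same number did not overlap, where 39.7% of all 13757 genes tested were called lower and 36.3% lay lower with no overlap. Since the members were chosen with these values in view, nothing is read from the counts. The summed level of 7 macrophage markers was 20910, 22448 and 19634 CPM in the adult libraries against 22.8, 24.0 and 26.7 CPM, with 0 of the 7 at 0 in the adult libraries. That of 7 stromal markers was 3361, 2611 and 4025 CPM against 56481, 64820 and 68496 CPM, and their part in the members' difference was not tested.

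The sort gene Pdgfra was at 15.2, 13.4 and 14.4 CPM in the adult and 279, 235 and 277 CPM in the perinatal libraries, so the members were also set against it. Per 100 Pdgfra reads, adult libraries held 3.44, 0.439 and 0 Pi16 reads and perinatal ones 64.7, 11.3 and 15.6. For Cd34 the values were 8.02, 8.33 and 4.15 against 288, 157 and 169, and for Mfap5 60.3, 100.4 and 76.2 against 1403, 330 and 329. These 3 genes, Dpp4 and Gap43 stayed lower in every adult library than in any perinatal one on this scale. Cd55, at 6.87, 14.5 and 3.63 against 59.1, 12.8 and 11.1, overlapped between the groups. Sema3c, at 135, 188 and 129 against 102, 47.2 and 47.6, and Efemp1, at 205, 236 and 197 against 28.6, 3.53 and 5.52, were higher in all 3 adult libraries. The outcome depended on the reference gene. Pdgfrb, a related receptor of stromal and mural cells, was at 109 to 176 CPM in the adult and 49.8 to 124 CPM in the perinatal libraries. Per 100 Pdgfrb reads, Sema3c was lower in every adult library, at 14.3, 23.1 and 10.6 against 569, 103 and 107. Efemp1 overlapped on that scale, at 21.7, 29.0 and 16.2 against 160, 7.68 and 12.4, and Cd55 did not, at 0.726, 1.78 and 0.297 against 331, 27.8 and 24.9.

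**Figure D4:**
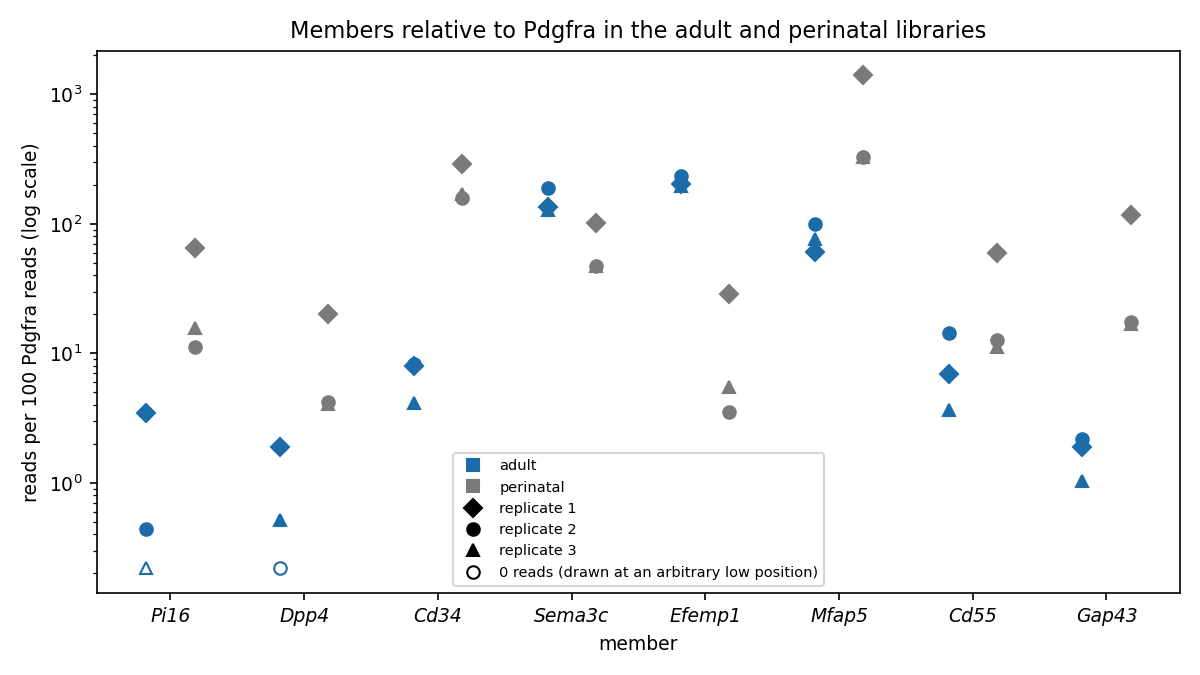
Reads of each member per 100 Pdgfra reads in each library of the age table (log axis; 0 reads drawn at an arbitrary low position). Efemp1 and Sema3c are higher in the 3 adult libraries, Cd55 overlaps, and the other 5 members are lower there.

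Of 25 companion genes in the age table, 23 fell and 1 rose in the adult libraries, beside 39.7% and 37.4% of all genes. Their median was -3.82 against -7.76 for the members and -0.06 for all genes. Ly6a and Ly6c1 have no row. Has1, a hyaluronan synthase, was at 0.232, 0.118 and 0.224 CPM in the adult libraries against 2279, 789 and 1175 CPM (-13.08 ± 0.65 SE, edgeR adjusted p = 2.58e-06). Tnxb, a tenascin, was at 0.232, 0.0589 and 0.0746 CPM against 561, 199 and 325 CPM (-11.67 ± 0.65 SE, edgeR adjusted p = 4.01e-06). Anxa3 went the other way, at 280, 287 and 251 CPM against 109, 24.1 and 25.2 CPM (2.10 ± 0.58 SE, edgeR adjusted p = 0.0112).

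Of the 15 committed fibroblast genes, 10 fell and 4 rose, beside 39.7% and 37.4% of all genes, with a median of -4.03. The 4 were genes of lipid handling, Cd36, Lpl, Pparg and Fabp4, with log2 fold changes of 2.37, 0.79, 1.57 and 0.91. Macrophage markers summed to 19634 to 22448 CPM in the adult libraries against 22.8 to 26.7 CPM in the perinatal ones. The part of such cells in these 4 rises and in those below was not tested. Dlk1 and Lepr fell by 12.02 and 6.52 on the log2 scale. Among 47 tested relatives and partners, 13 rose and 23 fell, beside 37.4% and 39.7% of all genes, with a median of -0.91. Mfap4 and Mfap2, microfibril proteins like Mfap5, were at 0, 0.0589 and 0.0746 CPM and at 3.65, 6.01 and 6.19 CPM in the adult libraries, against at least 899 and 2213 CPM in the perinatal ones. Fap, the surface peptidase nearest in kind to Dpp4, was at 1.74, 2.24 and 2.91 CPM against 191, 177 and 167 CPM (-6.56 ± 0.22 SE, edgeR adjusted p = 6.08e-07). The intracellular peptidases Dpp7 and Dpp8 rose by 2.18 ± 0.14 and 2.15 ± 0.11 on the log2 scale (SE). Basp1, a relative of Gap43, rose by 3.19 ± 0.24, and Glipr1, a CAP family relative of Pi16, by 6.61 ± 0.29 (SE).

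The third comparison set 3 Igf1r knockout libraries against 3 wild-type controls. The members separated the libraries in 2 ways: Dpp4, Mfap5, Efemp1, Gap43, Cd55 and Sema3c were high in the knockouts and control 1 and low in controls 2 and 3, while Pi16 and Cd34 were also low in knockout 3. None of the members passed edgeR's threshold between knockout and control. The sort gene Ly6a was at 768, 682 and 930 CPM in knockouts 1, 2 and 3. In controls 1, 2 and 3 it was at 425, 13.8 and 10.04 CPM. Ly6a was thus high and low in the same libraries as Dpp4, and its part in the result was not tested.

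Dpp4 was at 40.5, 9.99 and 11.4 CPM in controls 1, 2 and 3 and at 59.6, 90.1 and 86.5 CPM in knockouts 1, 2 and 3, a log2 fold change of 1.93 ± 0.58 (SE). Mfap5 was at 2071, 776 and 911 CPM against 3439, 4563 and 5293 CPM, 1.84 ± 0.45 (SE). Efemp1 was at 83.2, 8.32 and 15.3 CPM against 84.1, 88.4 and 87.6 CPM, 1.25 ± 0.77 (SE). For these 3 genes every knockout library exceeded every control, though for Efemp1 the mean of the knockouts was 1.04 times control 1, against 1.94 times for Dpp4 and 2.14 times for Mfap5.

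Gap43, at 280, 41.1 and 47.0 CPM against 196, 301 and 414 CPM, had a log2 fold change of 1.30 ± 0.76 (SE). Cd55, at 121, 30.1 and 30.9 CPM against 93.2, 154 and 164 CPM, had 1.17 ± 0.60 (SE), and Sema3c, at 244, 111 and 132 CPM against 231, 325 and 377 CPM, had 0.96 ± 0.39 (SE). In all 3 genes knockout 1 lay below control 1. Without control 1 the log2 fold changes were 2.98 for Dpp4, 2.49 for Mfap5, 2.96 for Efemp1, 2.89 for Gap43 and 2.27 for Cd55.

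Pi16 was at 571, 26.6 and 43.1 CPM in the controls and 303, 135 and 35.9 CPM in the knockouts, spans of 21.5-fold and 8.45-fold within a group. Its log2 fold change was -0.53 ± 1.15 (SE), 2.20 without control 1 and -1.35 without knockout 1. Cd34 was at 943, 370 and 469 CPM against 853, 847 and 381 CPM, 0.21 ± 0.45 (SE). Both genes were lower in all 3 knockouts than in control 1, and knockout 3 lay among controls 2 and 3.

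Of the 8 members, 0 were called, where 0.0368% of all 13590 genes tested were called in either direction. At an unadjusted p under 0.05, 3 were higher, beside 12.1% of all genes, and DESeq2 called 2 higher, Dpp4 and Mfap5, beside 3.49%. The 3 without overlap stand beside 15.4% of all genes. The count of called members ran from 0 to 5 when each library was left out, with 5 without control 1 and 1 without knockout 1, and that of all genes from 0 to 3003, with 306 and 3003 without those libraries. With the replicate number as a block, 0 members and 0 genes were called, and the log2 fold change of Pi16 was 0.35. The fit against control 1 alone, where only the knockouts supply the spread, called 0 of all genes and says nothing about the members. Cartilage markers summed to 424, 5089 and 6220 CPM in controls 1, 2 and 3 and 395, 225 and 209 CPM in the knockouts, and bone markers to 79.2, 6102 and 5684 CPM against 276, 125 and 235 CPM. High levels of these markers stood with low levels of the members in controls 2 and 3, and their part in the result was not tested.

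**Figure D5:**
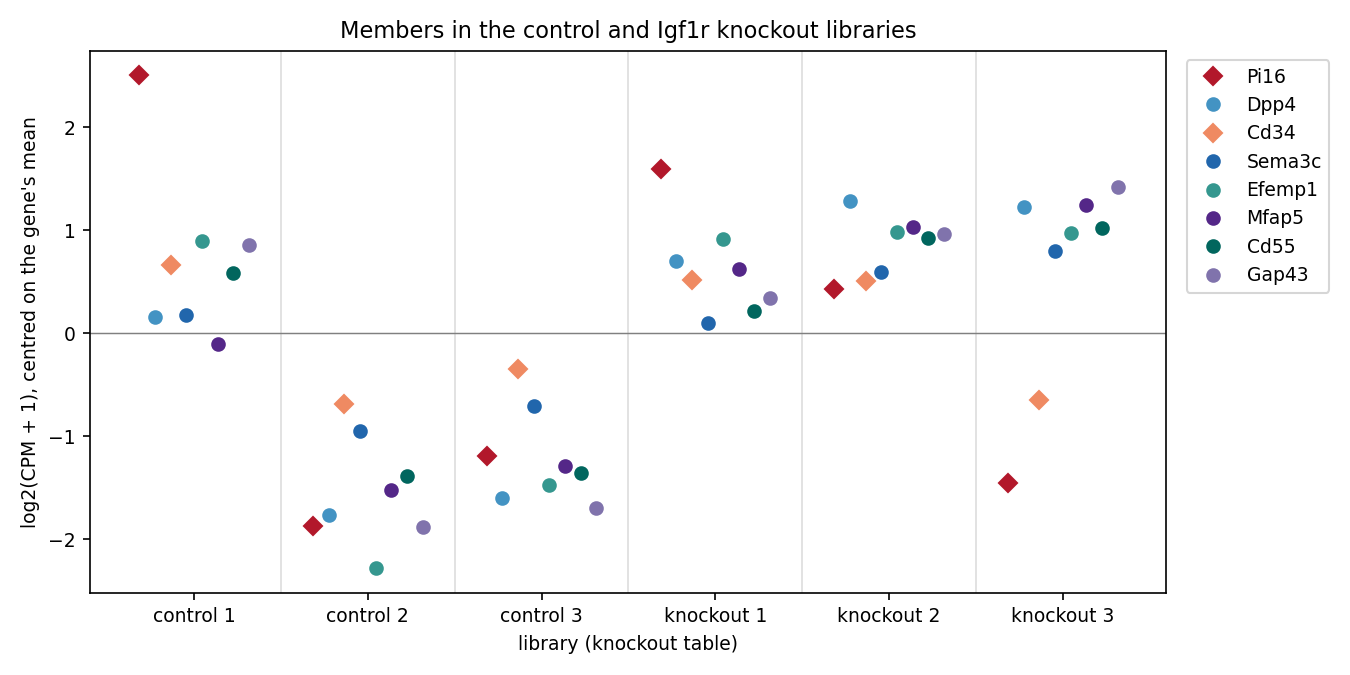
log2(CPM + 1) of each member in the 6 libraries of the knockout table, centred on the gene's mean over the 6. Pi16 and Cd34 (diamonds) fall below their means in knockout 3, where the other 6 members (circles) are above theirs.

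Across these 6 libraries, on the log2(CPM + 1) scale, the 15 pairs among the 6 members other than Pi16 and Cd34 had Pearson's r of 0.923 to 0.996. Pi16 and Cd34 had r = 0.949 with each other and 0.354 to 0.661 with the 6. The points share libraries and depth and fall into separate groups, so r is a description of likeness only. Of the 27 companion genes, 12 had the higher r with Pi16 and 15 with Dpp4, and the 15 committed genes split 8 to 7. The 12 include Smpd3 and Limch1, whose r was negative with both, and Uchl1, at 0.838 and 0.835, so the split marks no class. Nearest to Pi16 was Has1 (0.986), at 5289, 789 and 1176 CPM in controls 1, 2 and 3 and 3588, 2961 and 919 CPM in the knockouts. Tnxb, Cd248, Igfbp6 and Clec3b followed with r of 0.979, 0.973, 0.944 and 0.923. Nearest to Dpp4 was Anxa3 (0.987), at 82.3, 24.1 and 25.2 CPM against 101, 169 and 225 CPM, then Ly6c1 (0.977) and Ly6a (0.973). Ly6c1 was at 179, 13.0 and 9.90 CPM in the controls and 327, 311 and 337 CPM in the knockouts.

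No companion gene was called between knockout and control by edgeR. At an unadjusted p under 0.05, 5 of 27 were higher and 0 lower, beside 12.1% and 9.68% of all genes. DESeq2 called 4 higher, beside 3.49% of all genes. The median was 0.51, and 21 values were above 0. Without control 1, 9 of the 27 were called, all higher, and without knockout 1, 5, where 0.68% and 11% of all genes were called higher. For the 15 committed genes and the 45 tested relatives and partners the edgeR count was also 0. At an unadjusted p under 0.05 the committed genes had 1 higher and 2 lower and the relatives 7 higher and 17 lower. Of all genes, 12.1% were higher and 9.68% lower by that rule. DESeq2 called 2 committed genes lower and 2 relatives higher and 9 lower, where it called 3.49% of all genes higher and 3.63% lower.

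The genes whose pattern across the 6 libraries was most like the mean of the members, among 9172 whose log2 CPM averaged 3 or more, were Tmeff2, Mfhas1, Slco3a1, 1700019D03Rik, Lrrc8c, Mt1, Rab32 and Smim14, with r from 0.998 to 0.993. Tmeff2 was at 203, 73.8 and 80.2 CPM in controls 1, 2 and 3 and 204, 212 and 194 CPM in the knockouts. Mt1, a metallothionein, was at 1710, 402 and 570 CPM and 1602, 1751 and 1756 CPM. Of the members, Efemp1 ranked 7, Gap43 65 and Cd55 68, and Cd34 and Pi16 came last at 730 and 735. Each member is itself part of that mean, so these ranks cannot be set beside those of other genes.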

How the data were processed

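The authors deposited 3 tables of raw counts per gene, with TPM values beside them, per the file headers, and each table was analysed by itself. The submitters' processing notes name Trimmomatic 0.32 for trimming, the build mm10 and DESeq2. Aligner, counter, annotation and strand setting: not given in the sources used here. Levels were ordered between genes by TPM, its only use. The knockout table's 6 TPM columns hold values below 0 and were not used. Of the gene identifiers, 16506 of 16507 (age), 14267 of 14267 (Sca1) and 14910 of 14910 (knockout) were found in GENCODE M21.

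CPM of a library used its table's total. Groups were compared with edgeR 4.0.16 (TMM scaling, filterByExpr, robust glmQLFit, glmQLFTest, group as the only term) in R 4.3.3, tested on simulated data. A gene was called at a Benjamini-Hochberg adjusted p under 0.05 over all genes tested, and SE is the log2 fold change divided by the square root of F. The floor was 3 counts per library. Pooled ratios have exact 95% intervals. Likeness was Pearson's r with the members' mean profile.

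The members and lists were chosen with earlier results of these data known. The rule for other named genes took up to 4 called genes per list and direction with the smallest adjusted p. One gene it took is not reported here. Genes given as examples outside it were chosen after their values were seen: Ackr1, Tek, Egfl7, Cdh5, Lepr, Cxcl12, Nrp1, Nrp2, Fbn1, the members' neighbours, and those named for their correlation with Pi16 or Dpp4. Alternatives were DESeq2 1.42.0, other scalings and filters, each replicate left out, and the replicate number as a block. Deviations of same-numbered libraries from their group means correlated at 0.268, 0.114 and 0.103 in the knockout table. A rule of every pair over 0.1 pairs them, but knockout 3 and control 2, of unlike number, correlated at 0.304. Both same-numbered pairs of the Sca1 table correlated at 0.348, which that rule also pairs. With 2 libraries per group these 2 values are bound to be equal. The labels name no shared source in either table. In the age table same-numbered libraries correlated at -0.0452, -0.0270 and 0.248, so those samples share only a number. Figures were drawn with matplotlib 3.10.9.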

Additional observations from a re-analysis of the deposited data

How the results depend on the processing

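Of 298 values for single genes under an alternative, 276 kept their direction and their side of the threshold, as did 142 of 180 counts of calls within 1.5 times. DESeq2 moved the calls between the Sca1 labels from 597 to 1026 over all genes, from 15 to 24 for companion genes, from 0 to 2 for committed genes and from 7 to 13 for relatives and partners. In the knockout comparison it moved them from 5 to 967, and from 0 to 4, 2 and 11 for the same lists and to 2 for the members. With the replicate number as a block, calls between the Sca1 labels were 1369 over all genes and 24, 4 and 16 for the lists. No label names a shared source for the 2 numbers of that comparison. In the knockout comparison the block gave 0 genes called and 0.35 for Pi16, and in the age comparison 0.21 for Efemp1, and the block ended no call of a member in any comparison. Against control 1 alone, where only the knockouts supply the spread, 0 genes were called, Cd34 was at -0.53 and Efemp1 at -0.0035. Leaving out each library in turn gave 484 to 4835 calls between the Sca1 labels, with 8 to 24, 0 to 7 and 6 to 28 for the lists, and 0 to 3003 in the knockout comparison, with 0 to 5 for the members and 0 to 9, 0 to 2 and 0 to 16 for the lists. Single values that turned with a library left out were Efemp1 in the age comparison, -0.91 to 1.12 (1.12 without perinatal replicate 1), and in the knockout comparison Pi16, -1.35 to 2.20 (2.20 without control 1), and Cd34, -0.069 to 0.78 (-0.069 without control 2). The cause of these shifts was not tested. Depth limits the adult libraries, where Pi16, Dpp4 and Gap43 have 0 to 9 counts.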
